A study of Mus musculus with 8 samples.

Results

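The genes encoded by the mitochondrial genome were examined in RNA sequencing libraries of the P3 mouse cortex. Their members were all genes of the deposited count files whose symbol begins with mt-, which gave 37 of 48709 listed genes: 13 mRNA genes, 2 rRNA genes and 22 tRNA genes. The libraries came from 4 control and 4 dcKO_hGFAP-Cre cortices of C57BL/6J mice at postnatal day 3. The mutants carried BAF155 fl/fl and BAF170 fl/fl together with hGFAP-Cre pos/+. The sources differ on the controls: the sample records label them WT in their titles and control in their genotype field, the series design calls them wild types, and the methods of the study give BAF155 fl/+; BAF170 fl/+; Cre pos/+ for its control brains. Whether these 4 controls carried Cre and floxed alleles is therefore not known. BAF155 (gene Smarcc1) and BAF170 (gene Smarcc2) are scaffolding subunits of the BAF chromatin remodelling complex. hGFAP-Cre is active in radial glia of the dorsal telencephalon, so cells of other origin in the tissue keep both subunits, and the mutants die soon after birth. Whether expression of the mitochondrial genome differed between the mutant and control cortex was asked gene by gene and by RNA class.

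The mitochondrial genome is a small circle present in many copies per cell. Both of its strands are transcribed as long precursors that run through many genes, and tRNAs punctuate the mRNAs and rRNAs and mark where the precursors are cut. Its mRNAs encode subunits of respiratory complexes I, III and IV and of ATP synthase, the remaining subunits being encoded in the nucleus, and its rRNAs and tRNAs serve the ribosomes inside mitochondria. Most mitochondrial mRNAs carry short poly(A) tails, whereas most of the rRNA and the mature tRNAs do not carry tails of the kind that poly(A) selection captures well. The library kit used here selects poly(A) RNA and does not mark the strand, so the counts of rRNA and tRNA genes are those of molecules carried through the selection, and a read from a gene could not be told from a read of the opposite strand.

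The tRNA genes that passed the test described below lie mainly in a cluster on the minus strand between mt-Nd2 and mt-Co1. They are printed as annotated, 5′ to 3′ on their own strand, with the anticodon in capitals, mt-Ta, mt-Tn and mt-Tc because their differences between the groups were the largest, and mt-Tp and mt-Tl1 because they are among the most counted. mt-Ta (chrM:5018-5086), mt-Tn (chrM:5089-5159) and mt-Tc (chrM:5192-5257) carry alanine, asparagine and cysteine. mt-Tp (chrM:15356-15422, minus strand), which carries proline, and mt-Tl1 (chrM:2676-2750, plus strand), which carries leucine, are the other 2 of the 4 most counted tRNA genes with mt-Ta and mt-Tc.
mt-Ta: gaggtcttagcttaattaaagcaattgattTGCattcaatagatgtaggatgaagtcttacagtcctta
mt-Tn: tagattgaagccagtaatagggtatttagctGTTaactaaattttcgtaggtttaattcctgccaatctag
mt-Tc: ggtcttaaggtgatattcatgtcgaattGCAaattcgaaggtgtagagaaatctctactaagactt
mt-Tp: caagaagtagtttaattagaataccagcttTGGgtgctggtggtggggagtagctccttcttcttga
mt-Tl1: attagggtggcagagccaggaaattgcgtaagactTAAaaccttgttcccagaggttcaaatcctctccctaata
Coordinates and sequences are those of the GENCODE M21 annotation of the mouse build GRCm38, the sequence of mm10. The tRNA genes are 59 to 75 bases long.

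The libraries held 21126713 to 31805395 counts in control and 22002784 to 32110285 counts in dcKO_hGFAP-Cre samples. Of all genes, 16525 passed edgeR's filter on low counts, and 18.6% of them were called higher and 18.9% lower in dcKO_hGFAP-Cre cortices by edgeR's quasi-likelihood test, with an adjusted p under 0.05 as the threshold. Smarcc1 stood at 144 to 170 normalized counts per 1000000 counts (CPM) in control and 73.6 to 86.9 CPM in the mutant, and Smarcc2 at 469 to 500.3 and 256 to 319 CPM, so both targeted genes were lower in each of the 4 mutant libraries. The tissue carried its defining cortical markers, none of the 8 cortical neuron markers being at 0 in all libraries. dcKO_hGFAP-Cre replicates 1 and 2 stood apart by Ttr, a choroid plexus gene, at 584 and 1128 CPM against at most 15.8 CPM in the other 6 libraries, so results are also given without them. No pair of libraries of a group agreed within counting noise, so each was taken as 1 sample, and p-values measure the spread between these samples.

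Which mitochondrial genes could be read varied along the genome. Of the 37 genes, 20 passed the filter and were tested, 12 were listed at 0 in all 8 libraries, and 5 stood between 0 and 32 counts per library. A count of 0 allows up to 3 counts, or 0.0934 to 0.142 CPM in these libraries. The genes at or near 0 were concentrated in a continuous stretch. All 11 genes lying wholly within chrM:6381-11042 failed the filter, and 9 of them (mt-Ts1, mt-Td, mt-Co2, mt-Tk, mt-Atp8, mt-Atp6, mt-Co3, mt-Tg and mt-Nd4l) were listed at 0 throughout. They include mRNAs for 2 of the 3 cytochrome c oxidase subunits encoded in mitochondria, mt-Co2 and mt-Co3, and both mitochondrial subunits of ATP synthase, mt-Atp6 and mt-Atp8. Their levels in the mutant cortex therefore could not be compared.

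**Figure D1:**
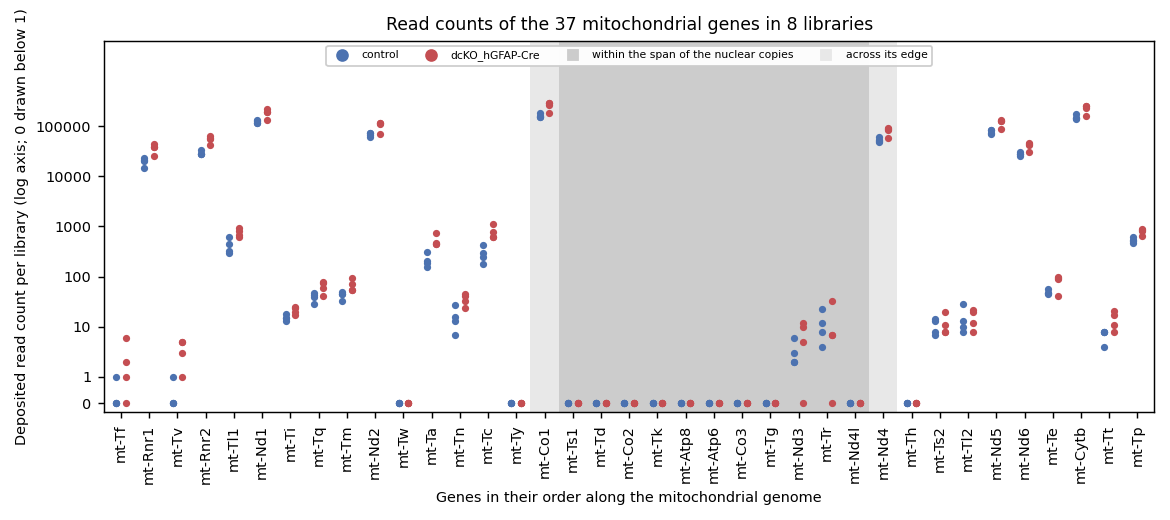
Deposited read counts (log axis, 0 drawn below 1) of the 37 mitochondrial genes in their order along the genome, each point being 1 of 4 control or 4 dcKO_hGFAP-Cre libraries. The 11 genes within the span of the nuclear copies (dark grey) lie between 0 and 32 counts in every library, while the mRNA and rRNA genes outside it have at least 14458 counts.

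This stretch of 4662 bases is spanned by annotated nuclear copies of 7 of its genes. Copies of mt-Co1, mt-Co2, mt-Atp6, mt-Co3, mt-Nd3, mt-Nd4l and mt-Nd4 follow each other in the same order on chr1:24611535-24616197, minus strand. Their spacing equals that of the mitochondrial genes to the base for 5 of the 7 copies and is off by 1 base for the other two, Gm10222 and Gm28439. Of these copies, 5 matched their mitochondrial gene without a mismatch over their whole length. Gm28438, the copy of mt-Nd3, differed at 1 of 345 bases, and Gm29216, the copy of the 3′ part of mt-Co1, at 6 of 492 bases. The chromosome 1 sequence between the copies was not compared, and 6 of the 11 genes inside the stretch (mt-Ts1, mt-Td, mt-Tk, mt-Atp8, mt-Tg and mt-Tr) share no 50-base window with another annotated transcript. The copies did not hold the counts either: apart from Gm28438 none exceeded 12 counts in any library. How reads matching both places were counted is not given in the sources used here, and its part in the zeros was not tested.

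Both genes that cross an edge of the stretch were counted. mt-Co1 (chrM:5328-6872) has 31.8% and mt-Nd4 (chrM:10167-11544) 63.6% of its length inside it. Per kilobase of annotated length, mt-Nd4 stood at 1559 ± 324 CPM (SD, n = 4) in control, below mt-Nd5 at 1741 ± 390 CPM by less than the spread. Per kilobase of the 50-base windows not shared with another annotated transcript, mt-Nd4 stood at 4279 ± 888 CPM and mt-Nd5 at 1936 ± 433 CPM. On the same unshared scale mt-Co1 was the most abundant of the readable mRNAs in control, at 8979.9 ± 1609 CPM per kilobase. It was followed by mt-Cytb at 5544 ± 1033 CPM and mt-Nd1 at 5491 ± 1032 CPM, which did not differ beyond their spread. Per kilobase of annotated length this order did not hold, mt-Co1 standing at 4249 ± 761 CPM, below mt-Cytb at 5307 ± 989 CPM and mt-Nd1 at 5210 ± 979 CPM. The level of a gene at the edge thus depends on the length it is divided by, whereas its ratio between groups does not.

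Outside the stretch, mt-Tw, mt-Ty and mt-Th were also listed at 0 in all libraries, although none of their 50-base windows is shared with another annotated transcript. mt-Tf and mt-Tv, which flank mt-Rnr1, had at most 6 and 5 counts in a library. mt-Tt stood at 4 to 21 counts and did not pass the filter.

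mt-Nd3 and mt-Tr, the arginine tRNA gene next to it, were the genes inside the stretch with counts above 0. mt-Nd3 had 2, 6, 2 and 3 counts in control replicates 1 to 4, against 5, 10, 12 and 0 counts in the mutant replicates 1 to 4. mt-Tr had 8, 4, 12 and 23 counts in control and 7, 7, 32 and 0 counts in the mutant. Gm28438, the nuclear copy of mt-Nd3, had 3, 0, 2 and 4 counts in control and 4, 1, 2 and 180 counts in the mutant. The mutant library with 180 counts at the nuclear copy was therefore the one library with 0 counts at both mitochondrial genes. The mitochondrial gene and the copy differ by T3C, counted from 1 at the 5′ end of mt-Nd3 (chrM position 9461), and the first 60 bases of both are printed with that base in capitals, since it is the base that tells them apart over the length of the copy.
mt-Nd3: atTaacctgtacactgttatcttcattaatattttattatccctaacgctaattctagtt
Gm28438: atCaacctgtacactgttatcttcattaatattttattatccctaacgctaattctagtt

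**Figure D2:**
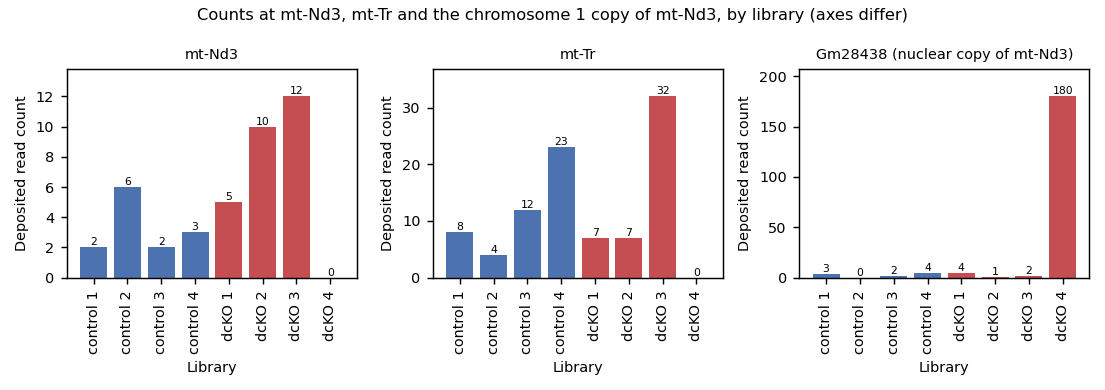
Deposited read counts at mt-Nd3, mt-Tr and Gm28438 in each of the 8 libraries, on axes that start at 0 and differ between panels. dcKO_hGFAP-Cre replicate 4 has 0, 0 and 180 counts, and no other library exceeds 4 counts at Gm28438.

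More of the sequenced RNA came from the mitochondrial genome in the mutant cortex. The 37 genes took 3.21, 3.23, 2.06 and 2.60% of all counts in the control libraries, given in the order of replicates 1 to 4 here and throughout. In the dcKO_hGFAP-Cre libraries they took 3.59, 5.47, 4.27 and 3.57%. All 4 mutant libraries thus lay above all 4 control libraries, with means of 2.77% ± 0.556 (SD, n = 4) and 4.23% ± 0.890. The sequencing lane is given in the sample labels, and both groups are present in each lane. The mutant share was 1.41 times the control share in lane 5 (2 libraries per group), 2.07 times in lane 6 and 1.37 times in lane 7 (1 library per group each). dcKO_hGFAP-Cre replicates 1 and 2 were the mutant libraries of lane 5, so the ratios of lanes 6 and 7 are without them. In bulk tissue, a change in which cells are present and a change in RNA per cell cannot be told apart.

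The share rose in each of the 3 RNA classes, with a smaller ratio of the means for mRNA than for rRNA and tRNA genes, a difference that was not tested. The mRNA genes took 2.58% ± 0.529 of all counts in control and 3.86% ± 0.834 in the mutant, a ratio of 1.498. The rRNA genes took 0.188% ± 0.0287 and 0.350% ± 0.0558, a ratio of 1.87, and the tRNA genes 0.00647% ± 0.00187 and 0.0122% ± 0.00161, a ratio of 1.89. In each class all mutant libraries lay above all control libraries. These are shares of the library totals. The normalization to a trimmed mean (TMM) used for the gene-wise test scales the mutant libraries down relative to controls, its factors being 0.944 to 0.984 in control and 1.03 to 1.06 in the mutant, and after it the summed mRNA level overlapped between groups, at 20114 to 31222 CPM in control and 30773 to 48584 CPM in the mutant, while the summed rRNA and tRNA levels still did not overlap.

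**Figure D3:**
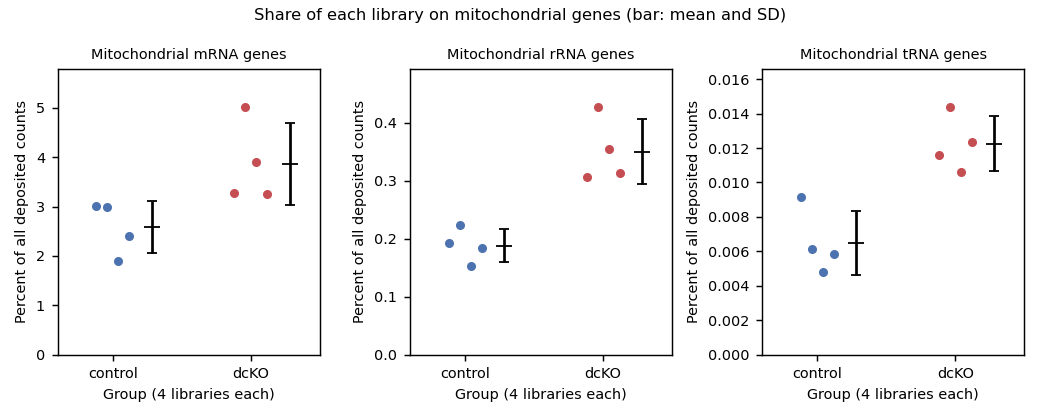
Percent of all deposited counts on the mitochondrial mRNA, rRNA and tRNA genes, 1 point per library, with the mean and SD of 4 libraries beside the points. All mutant points lie above all control points in each panel, and the ratio of the means is 1.498 for mRNA, 1.87 for rRNA and 1.89 for tRNA genes.

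Gene by gene, 7 of the 20 tested mitochondrial genes were called higher and none lower in the mutant by edgeR's quasi-likelihood test at an adjusted p under 0.05. This is to be read beside the 18.6% of all tested genes called higher. At an unadjusted p under 0.05, 16 were higher, beside 24.2% of all tested genes, and none lower. The median log2 fold change of the 20 genes was 0.51, beside 0.02 over all tested genes, and 19 of 20 were positive, beside 52.4% of all genes. The 20 genes share precursors and libraries and are not independent observations. The calls were both rRNAs, 1 of the 7 tested mRNAs and 4 of the 11 tested tRNAs. By annotated strand, 4 of the 7 tested genes on the minus strand and 3 of the 13 on the plus strand were called. These libraries do not tell the strand of a read, and the minus-strand calls mt-Ta, mt-Tn and mt-Tc are neighbours in 1 cluster. The number called depended on the method and on single libraries. With DESeq2 it was 13, beside 16.2% of all genes tested by it, and with library totals in place of TMM 13, beside 27.7%. With limma-voom it was 10, beside 18.5%, and with the sequencing lane as a block 10, beside 19.4%. Without dcKO_hGFAP-Cre replicate 2 it was 4, beside 14.1%, and without dcKO_hGFAP-Cre replicates 1 and 2 together 3 (mt-Rnr1, mt-Rnr2 and mt-Ta), beside 8.06%.

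**Figure D4:**
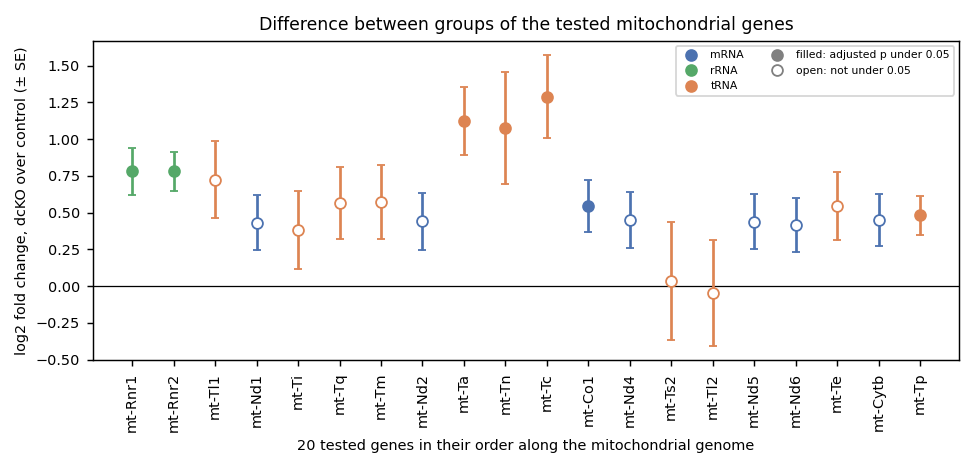
log2 fold change of dcKO_hGFAP-Cre over control with its standard error for the 20 tested mitochondrial genes in genome order, coloured by RNA class, filled where the adjusted p was under 0.05. The mRNAs lie close together between 0.42 and 0.54, both rRNAs at 0.78, and mt-Ta, mt-Tn and mt-Tc above 1.

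Both rRNA genes rose. mt-Rnr1 (chrM:70-1024), the RNA of the small subunit of the mitochondrial ribosome, stood at 665, 968, 704 and 786 CPM in control and 1081, 1644, 1505 and 1134 CPM in the mutant. The rise on the log2 scale was 0.78 ± 0.16 (SE), with an adjusted p of 0.00375 in edgeR's test. mt-Rnr2 (chrM:1094-2675), the RNA of the large subunit, stood at 1289, 1349, 909 and 1152 CPM in control and 1797, 2489, 1902 and 1897 CPM in the mutant. It rose to the same extent, with a log2 fold change of 0.78 ± 0.13 and an adjusted p of 0.00107. The groups did not overlap for either gene, as for 16.7% of all tested genes with the mutant above control. The ratio of mt-Rnr2 to mt-Rnr1 counts was 1.52 ± 0.286 in control and 1.53 ± 0.191 in the mutant, so the 2 rRNAs kept their proportion. Per kilobase of annotated length in control, mt-Rnr1 (818 ± 141 CPM) and mt-Rnr2 (743 ± 124 CPM) stood below every readable mRNA.

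Among the mRNAs, mt-Co1 alone passed the main test. mt-Co1, a catalytic subunit of cytochrome c oxidase (complex IV), stood at 7359, 7558, 4988 and 6352 CPM in control and 7922, 12383, 10014 and 7960.2 CPM in the mutant. Its change on the log2 scale was 0.54 ± 0.18, with an adjusted p of 0.0382 in edgeR's test, and the groups did not overlap. The margin was narrow, the lowest mutant library lying only just above the highest control library. The call was lost when control replicate 1, 3 or 4 or dcKO_hGFAP-Cre replicate 2 or 3 was left out, the adjusted p rising to at most 0.0960, with log2 fold changes from 0.38 to 0.63 over the 8 libraries left out in turn. It was also lost without the filter on low counts.

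The other 6 readable mRNAs had positive fold changes that did not pass the main test but lay near its threshold. With DESeq2, 5 of them were called (mt-Nd1, mt-Nd2, mt-Nd4, mt-Nd5 and mt-Cytb), and with the lane as a block mt-Nd5 and mt-Nd6 were. None of the 6 was called with any single library left out or without the filter on low counts. Without dcKO_hGFAP-Cre replicate 2 their log2 fold changes were 0.24 to 0.29, with adjusted p-values of 0.171 to 0.264 in edgeR's test. mt-Cytb (chrM:14145-15288), the cytochrome b of complex III, stood at 6560.0, 7184, 4535 and 6005 CPM in control and 6906, 10772, 8579 and 6911 CPM in the mutant, so that 2 mutant libraries lay within the range of control. Its log2 fold change was 0.45 ± 0.18, with an adjusted p of 0.0783 in edgeR's test. The complex I subunits mt-Nd1, mt-Nd2, mt-Nd4 and mt-Nd5, with log2 fold changes of 0.43, 0.44, 0.45 and 0.44, had adjusted p-values between the 0.0783 of mt-Cytb and the 0.107 of mt-Nd6.

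mt-Nd6 (chrM:13552-14070), another complex I subunit, is the only mRNA encoded on the minus strand. It stood at 1278, 1354, 829 and 1033 CPM in control and 1289.8, 1969, 1484 and 1256 CPM in the mutant, with overlap. Its log2 fold change of 0.42 ± 0.19 was the smallest of the 7 mRNAs and did not pass (adjusted p 0.107 in edgeR's test). The adjusted p was 0.0364 with the lane as a block and 0.264 without dcKO_hGFAP-Cre replicate 2. Its counts per 100 counts of mt-Nd5, the plus-strand gene whose end it overlaps by 14 bases, were 35.5 ± 1.83 in control and 34.7 ± 0.964 in the mutant. The ratio of the counts at these neighbouring genes thus differed by less than the spread between libraries. Reads from the opposite strand across mt-Nd6 would count towards it in these libraries, so this ratio cannot measure a balance between the strands.

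Among the 7 readable mRNAs, the composition of the mitochondrial mRNA counts was nearly the same in both groups. The mRNAs lying wholly within the stretch described above could not be compared. Of the 7 mRNAs, 6 had overlapping shares of the mitochondrial mRNA counts, and the means differed by -0.53 percentage points (mt-Nd1) to 1.29 percentage points (mt-Co1). mt-Co1 was the exception, with 24.1, 24.2, 24.8 and 24.9% of mRNA counts in control and 25.7, 25.5, 26.6 and 25.3% in the mutant. All mutant libraries lay above all control libraries, by a small margin. Relative to mt-Cytb, mt-Co1 had 108 ± 3.36 counts per 100 in control and 115 ± 0.908 in the mutant. mt-Cytb per 100 mt-Nd1 counts, a comparison of genes far apart along the genome, was 122 ± 8.99 and 124 ± 5.18.

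The tRNA genes spanned the widest range of differences. mt-Tc stood at 19.5, 8.87, 8.30 and 10.3 CPM in control and 26.7, 33.4, 20.6 and 33.5 CPM in the mutant. The groups did not overlap, and the log2 fold change was 1.29 ± 0.28, with an adjusted p of 0.00665 in edgeR's test. mt-Ta stood at 14.1, 7.79, 6.87 and 6.53 CPM in control and 19.0, 19.2, 15.7 and 22.6 CPM in the mutant. Again there was no overlap, and the log2 fold change was 1.12 ± 0.23, with an adjusted p of 0.00323. mt-Tn, which lies between them, had only 7 to 27 counts in control and 24 to 46 in mutant libraries. Its log2 fold change was 1.07 ± 0.38 with an adjusted p of 0.0406 and overlapping groups, and its call was lost without control replicate 2, 3 or 4 or dcKO_hGFAP-Cre replicate 1, 2 or 4, the adjusted p then reaching up to 0.122. mt-Ty, the fourth tRNA gene of this cluster, was listed at 0.

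mt-Tp stood at 21.4, 24.8, 17.7 and 21.1 CPM in control and 27.7, 35.7, 30.6 and 24.6 CPM in the mutant. Only dcKO_hGFAP-Cre replicate 4 lay within the control range. The log2 fold change of mt-Tp was 0.48 ± 0.13, with an adjusted p of 0.0134 in edgeR's test, which rose to 0.0509 without dcKO_hGFAP-Cre replicate 2. mt-Tl1, which lies between mt-Rnr2 and mt-Nd1, stood at 27.8, 14.6, 10.9 and 15.3 CPM in control and 26.2, 35.1, 23.4 and 28.4 CPM in the mutant. Control replicate 1 lay among the mutant libraries, and the log2 fold change of 0.73 ± 0.26 did not pass, with an adjusted p of 0.0559. Without that library the log2 fold change was 1.05, with an adjusted p of 0.000781, and with the lane as a block the adjusted p was 0.0187. mt-Tl1 was not called when any other single library was left out, the adjusted p reaching 0.156 without dcKO_hGFAP-Cre replicate 2. Without the filter on low counts the adjusted p was 0.185, and without dcKO_hGFAP-Cre replicates 1 and 2 it was 0.268.

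The remaining tested tRNAs were not called. mt-Tq, mt-Tm, mt-Te and mt-Ti had log2 fold changes of 0.57, 0.57, 0.55 and 0.38. mt-Ts2 and mt-Tl2, the serine and leucine tRNA genes before mt-Nd5, had log2 fold changes of 0.04 and -0.04, with standard errors of 0.40 and 0.36 and at most 20 and 28 counts in a library. At this depth neither a rise like that of mt-Rnr2 nor its absence could be shown for them, and their sign turned with the setting.

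Differences between the classes were also read within the mitochondrial RNA, with the mitochondrial mRNA counts as the measure. rRNA counts per 100 mRNA counts were 6.39, 7.42, 8.02 and 7.59 in control and 9.35, 8.51, 9.04 and 9.63 in the mutant. All mutant libraries lay above all control libraries, and the means were 7.36 ± 0.688 and 9.13 ± 0.481. The tRNA counts, 250.3 ± 41.1 per 100000 mRNA counts in control and 323 ± 52.4 in the mutant, overlapped between groups. For mt-Rnr2 alone the groups did not overlap either (4.39 ± 0.147 against 5.51 ± 0.496), whereas for mt-Rnr1 they did (2.96 ± 0.559 against 3.62 ± 0.263).

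mt-Tc had 63.7, 28.4, 41.3 and 40.2 counts per 100000 mRNA counts in control and 86.7, 68.8, 54.6 and 106 in the mutant. mt-Ta had 46.2, 24.9, 34.2 and 25.5 in control and 61.7, 39.4, 41.8 and 71.8 in the mutant. Both genes were highest in control replicate 1 among controls and in dcKO_hGFAP-Cre replicates 1 and 4 among mutants, and control replicate 1 lay within the mutant range. mt-Tp had 80.0 ± 7.46 counts per 100000 mRNA counts in control and 80.7 ± 6.99 in the mutant, so its rise was of the size of that of the mRNAs.

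When the summed mitochondrial mRNA counts stood in for library size in edgeR's quasi-likelihood test, 2 of the 20 genes were called, mt-Tc with a log2 fold change of 0.87 (adjusted p 0.00762) and mt-Ta with 0.71 (adjusted p 0.0314), beside 2.45% of all tested genes called higher. mt-Rnr1 and mt-Rnr2, with log2 fold changes of 0.29 and 0.33, were not called (adjusted p 0.382 and 0.316). The mRNAs lay between -0.04 and 0.07, their average being set near 0 by the use of their own sum as library size. The median of all tested genes was -0.44 under this scaling. In this fit the spread between libraries in the mitochondrial share enters every other gene, and the standard errors of the mRNAs were 0.25 to 0.26, against 0.18 to 0.19 in the main test.

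**Figure D5:**
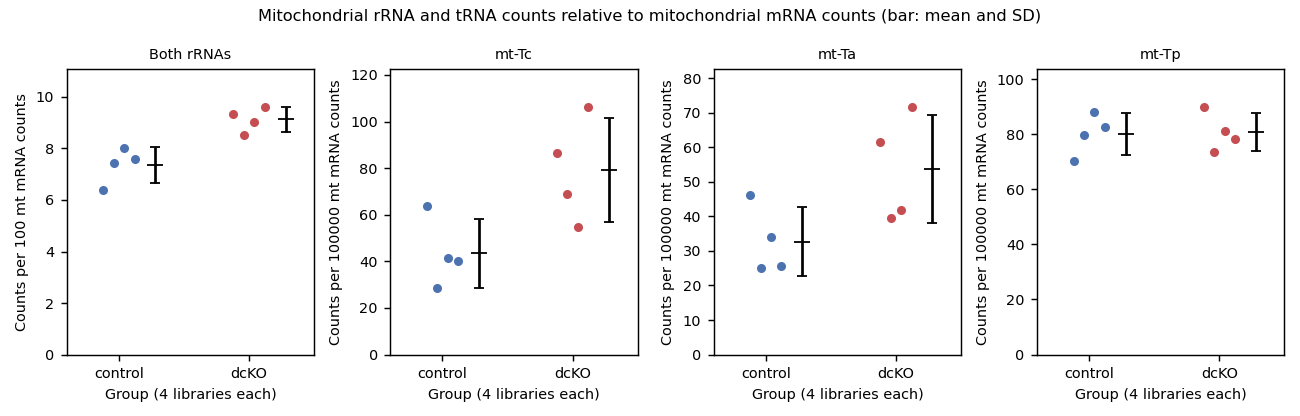
Counts of both rRNA genes per 100 and of mt-Tc, mt-Ta and mt-Tp per 100000 mitochondrial mRNA counts, 1 point per library, with the mean and SD of 4 libraries. The rRNA points of the groups do not overlap, mt-Tc and mt-Ta overlap through control replicate 1, and mt-Tp has nearly equal means of 80.0 and 80.7.

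Other RNAs that poly(A) selection should leave behind were set beside these values, a comparison chosen after the values had been seen. The summed level of 354 nuclear genes annotated as rRNA was 324, 179, 295 and 321 CPM in control and 1439.5, 408, 526 and 316 CPM in the mutant, with 3 of 4 mutant libraries above all controls. The part of the carry-over of RNA without tails in the rise of rRNA and tRNA counts was not tested.

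The nuclear genes that serve the mitochondrial genome were then read from the same fit, and the share of each list called is to be set beside the 18.6% of all tested genes called higher and the 18.9% called lower. Of the 176 genes of all nuclear lists, 67 (38.1%) were called higher and 7 (3.98%) lower. Without dcKO_hGFAP-Cre replicates 1 and 2, 25 were called higher, beside 8.06% of all genes tested in that fit, and 1 lower. Of 10 genes of mitochondrial transcription, 4 (40.0%) were called higher and none lower: Tfb1m (log2 fold change 0.74), Mterf3 (0.48), Mterf2 (0.43) and Mterf1b (0.83). Tfb1m methylates the small rRNA, and the Mterf proteins bind mitochondrial DNA or rRNA. The core transcription machinery did not pass. Polrmt, the RNA polymerase, stood at 38.6 ± 4.85 CPM in control and 42.2 ± 7.63 CPM in the mutant (log2 fold change 0.13). Tfam, which packages mitochondrial DNA and starts transcription, stood at 47.4 ± 0.964 and 50.4 ± 2.96 CPM (0.09), the initiation factor Tfb2m at 5.60 ± 0.150 and 5.76 ± 0.884 CPM (0.04), and the elongation factor Tefm at 7.38 ± 0.888 and 9.65 ± 1.71 CPM (0.38, adjusted p 0.0702 in edgeR's test).

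For the genes that handle the transcripts, the differences went both ways. Of 29 RNA processing genes, 4 (13.8%) were called higher and 1 (3.45%) lower, both below the shares over all genes, with a median log2 fold change of -0.02. Hsd17b10, a subunit of mitochondrial RNase P, which cuts tRNAs from the precursors, rose by 0.49 on the log2 scale, Fastkd2 by 0.40 and Ngrn by 0.25. Trmu, named after its values were seen, rose by 0.40. Pus1, which makes pseudouridine in tRNAs, fell by 0.32. Of 9 genes of RNA stability, 3 (33.3%) were higher and 1 (11.1%) lower. Slirp, which protects mitochondrial mRNAs together with Lrpprc, stood at 12.9 ± 0.637 CPM in control and 17.9 ± 2.54 CPM in the mutant, with no overlap (log2 fold change 0.47, adjusted p 0.00841 in edgeR's test). Without dcKO_hGFAP-Cre replicates 1 and 2 its call was lost, with a log2 fold change of 0.36 and an adjusted p of 0.104. Its partner Lrpprc stood at 91.7 ± 3.35 and 85.5 ± 5.07 CPM and did not pass (log2 fold change -0.10). Pnpt1, the mitochondrial polynucleotide phosphorylase, and Ptcd3 rose by 0.58 and 0.28, and Pde12, which removes poly(A) tails in mitochondria, fell by 0.29.

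Of 13 genes of mitochondrial DNA replication, 5 (38.5%) were called higher and none lower, with a median log2 fold change of 0.01. They were Ssbp1 (0.75), the single-stranded DNA binding protein, Dna2 (0.84), Polg2 (0.72), the accessory subunit of the DNA polymerase, Primpol (0.76) and, named after its values were seen, Dguok (0.43). The helicase Twnk stood at 25.7 ± 2.69 CPM in control and 21.6 ± 1.13 CPM in the mutant (log2 fold change -0.25, adjusted p 0.0674 in edgeR's test). Among 12 regulators of mitochondrial biogenesis, 1 (8.33%) was higher and 2 (16.7%) lower, both shares below those over all genes. Esrrb rose (log2 fold change 2.86), Ppara (-1.55) and Pprc1 (-0.64) fell, and Ppargc1a, the coactivator PGC-1α, was not called (0.12).

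Genes commonly read for the amount of mitochondria did not move together. Cs, the citrate synthase of the matrix, fell from 364 ± 16.3 CPM to 266 ± 22.8 CPM, with every mutant library below every control library (log2 fold change -0.45, adjusted p 0.000821 in edgeR's test). Of the 16 genes of this list, 2 were higher (Hspe1, Tomm22) and 2 lower (Cs, Hspd1), 12.5% each, with a median log2 fold change of 0.09. Of 11 genes of mitochondrial dynamics and mitophagy, 5 (45.5%) were higher, among them Fundc1 (0.75), Bnip3l (0.43) and Mfn1 (0.41), and 1, Mfn2 (-0.27), named after its values were seen, was lower. The level of mitochondrial DNA itself was not measured in these data.

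The nuclear subunits of the respiratory chain, the partners of the mitochondrial mRNAs' products, were higher where they passed. Of 76 tested, 43 were called higher and none lower, beside 18.6% of all genes, with a median log2 fold change of 0.36 against 0.44 for the 7 mitochondrial mRNAs. The counts were 20 of 36 for complex I, 1 of 4 for complex II, 3 of 9 for complex III, 8 of 11 for complex IV and 11 of 16 for complex V. The summed level of the 76 genes overlapped between groups, at 8300 to 10180 CPM in control and 9264 to 12303 CPM in the mutant. By complex, the summed levels overlapped for complexes I, II, III and V and did not for complex IV. Complex II, which has no mitochondrially encoded subunit, gave Sdhd (0.44). Examples of the others are Ndufs4 (0.49), Uqcr10 (0.74), Cox7c (0.75) and Atp5l (0.79). Lars2, which charges mitochondrial leucine tRNAs and was named after its values were seen, stood at 458, 403, 658 and 784 CPM in control and 1172, 1245, 1041 and 763 CPM in the mutant, with overlap (log2 fold change 0.87, adjusted p 0.0227 in edgeR's test). Its call was lost with the lane as a block (0.0650) and without dcKO_hGFAP-Cre replicates 1 and 2 (0.149).

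Markers of cell types moved with the groups as well, and their counts too stand beside 18.6% of all genes called higher and 18.9% lower. Of 8 cortical neuron markers 6 were lower, their summed level being 1879 to 2004 CPM in control and 1039 to 1194 CPM in the mutant. All 5 markers of oligodendrocyte precursors were lower (367 to 400.2 against 220.3 to 295 CPM), as were 4 of 5 endothelial markers (154 to 201 against 88.5 to 151 CPM). Higher were 5 of 7 microglial markers (83.8 to 111 against 156 to 194 CPM), 5 of 8 markers of striatal neurons (122 to 175 against 364 to 703 CPM), 2 of 6 choroid plexus markers (4.15 to 13.6 against 4.59 to 1178 CPM) and 5 of 9 immediate early genes (94.2 to 99.7 against 127 to 172 CPM). Of 7 long non-coding RNAs held in the nucleus, 4 were higher (1872 to 3806 against 3422 to 6548 CPM). No marker of astrocytes and radial glia (6 tested; 1459 to 1488 against 1027 to 2343 CPM) or erythrocytes (6 tested; 54.3 to 73.5 against 37.2 to 130 CPM) was called. dcKO_hGFAP-Cre replicate 3 was the highest mutant library for each astrocyte and radial glia marker. Gfap stood at 79.3 to 89.5 CPM in control and 24.2, 32.2, 273 and 26.2 CPM in the mutant. Gfap, Aqp4, Aldh1l1 and Slc1a3 lay below all controls in dcKO_hGFAP-Cre replicates 1, 2 and 4, whereas Fabp7 and Hes5 did not in replicate 2. In none of these lists was a gene at 0 in all libraries. The part of cell types or activity in the mitochondrial values was not tested.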

How the data were processed

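The authors made cDNA libraries with the TruSeq RNA v2 kit, and deposited, for each gene, the raw count of reads that featureCounts assigned after alignment to mm10, without normalization. The aligner, annotation, strand setting and handling of reads with several matches are not given in the sources used here. Ensembl identifiers were matched to symbols and coordinates in GENCODE M21 (48349 of 48709). Members and lists were chosen with earlier results of these data known. All genes were fitted together with edgeR 4.0.16 (R 4.3.3; quasi-likelihood F test, robust, TMM, filterByExpr with a minimum count of 10), with Benjamini-Hochberg adjustment over 16525 genes and a threshold of 0.05. CPM are TMM-normalized. Shares and ratios use raw counts and carry no test. Stretches shared between transcripts were found with windows of 50 bases. Anticodons were read from the loop of the best central stem.

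All tested members were named. Nuclear genes were named from a fixed set and as at most 4 per list with the smallest p; 1 gene that this rule names is not reported here. Alternatives were DESeq2 1.42.0, limma-voom (limma 3.58.1), other scalings and filters, a replicate or lane block, and each of 8 libraries left out. Alternatives chosen after seeing the data were class ratios with nuclear copies added or a library left out, calls with copies added or at unadjusted p-values, and a total without nuclear rRNA genes. The script was tested on simulated data.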

Additional observations from a re-analysis of the deposited data

Results flagged for a closer look

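In 104 groups of 4 libraries examined, 4 had a library whose gap to the nearest other library exceeded Dixon's critical value for the group's range, and chance gives about 1 in 20. Gm28438, the nuclear copy of mt-Nd3, had 180 counts in dcKO_hGFAP-Cre replicate 4, against 1 to 4 in the other mutants. mt-Rnr2 stood at 2489 CPM in dcKO_hGFAP-Cre replicate 2, against 1797 to 1902 CPM in the other mutants, a library that also had the highest mitochondrial share (5.47%). mt-Ta stood at 14.1 CPM in control replicate 1, against 6.53 to 7.79 CPM in the other controls, and that library was also the highest control for mt-Tc and mt-Tl1. mt-Tl2 stood at 0.972 CPM in control replicate 4, against 0.394 to 0.460 CPM in the other controls, from at most 28 counts.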

How the results depend on the processing

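The number of mitochondrial genes called higher was 7 in the main test, 13 with DESeq2, 13 with library totals, 10 with limma-voom, 10 with the lane as a block, 14 with the replicate number as a block (beside 17.7% of all genes; the 6 other mRNAs and mt-Tl1 being the added calls), 3 without both dcKO_hGFAP-Cre replicates 1 and 2, and 16 at an unadjusted p under 0.05; no setting called any lower. Leaving out single libraries gave 4 to 7, and dcKO_hGFAP-Cre replicate 2 alone took the count to 4. mt-Rnr1, mt-Rnr2 and mt-Ta were called under all 19 of these alternatives other than the mitochondrial mRNA scaling, and mt-Tc under 18, its call ending without dcKO_hGFAP-Cre replicates 1 and 2. Over all genes, library totals moved the median by 0.12 on the log2 scale, and 68.6% of calls were then higher, against 49.6%. Same-numbered libraries deviated together in only 2 of 4 pairs (correlations from -0.07 to 0.21), so the numbers were not taken as pairs, and 1 of 4 controls correlated best with its own number. With mitochondrial mRNA counts as library size the sign turned for mt-Nd1 (-0.042), mt-Ti (-0.11), mt-Nd2 (-0.021), mt-Nd4 (-0.013), mt-Ts2 (-0.41), mt-Nd5 (-0.015), mt-Nd6 (-0.045) and mt-Cytb (-0.019). For the mRNAs among them this scaling itself sets the average near 0, their own sum being the library size. mt-Ts2 ranged from -0.30 to 0.27 over the libraries left out, and mt-Tl2 from -0.17 to 0.37. mt-Tl2 was 0.0089 with limma-voom, 0.078 with library totals and 0.23 without dcKO_hGFAP-Cre replicates 1 and 2. Tfb2m ranged from -0.036 to 0.13 over the libraries left out, being -0.032 without dcKO_hGFAP-Cre replicate 1, and was -0.16 without dcKO_hGFAP-Cre replicates 1 and 2, and Lrpprc was 0.019 with library totals. Without dcKO_hGFAP-Cre replicates 1 and 2, 25 nuclear list genes were higher and 1 lower (main 67 and 7), and 1388 and 1581 of the 17229 genes tested in that fit. With library totals 3 list genes were lower. With single libraries left out, 45 to 88 list genes were higher and 4 to 9 lower, the 4 being without control replicate 3 or 4. The excess share on mitochondrial genes, 1.45 percentage points, was 1.04 to 1.67 with single libraries left out and 1.30 without the rRNA genes. The causes were not tested. Depth limits the tRNAs with under 50 counts a library.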
